A study of Mus musculus with 2 samples.

Results

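Proteasome genes were examined in the hearts of newborn mice. They were taken as every gene whose mouse symbol begins with Psma, Psmb, Psmc, Psmd, Psme, Psmf or Psmg followed by a number, with pseudogenes left out. The rule gave 50 genes, all protein coding, of the 43346 Ensembl genes in the tables. Of these 50, 48 fall into the known roles within the particle and its assembly. Psmc3ip meets the rule by its name alone, since its product is a partner of meiotic recombination enzymes named for binding an ATPase of the particle, and Psme2b is a further gene named for an activator subunit.

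Total RNA was sequenced from 2 hearts of the inbred mouse strain B6NCrl at postnatal day 0, with no genetic change or treatment named in the labels. Replicate 1 is the heart of pup 2 and replicate 2 the heart of pup 3 of pregnancy 1, and sex was not collected. The labels give them 1 shared donor identifier but describe separate pups, and they were counted as 2 animals on that description. RNA was extracted with Ambion mirVana, 10 ng entered each library, spike-ins were added, and the protocols include the user guide of the kit SMARTer Ultra Low. There was 1 group (n = 2), so the comparisons are between genes within a heart and between the littermates. With 2 animals the smallest two-sided p of an exact sign-flip test is 0.5, so no p-value is given.

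The proteasome is the protease that degrades most ubiquitin-tagged proteins of the cell. Its 20S core is a barrel of alpha rings, which gate the entry, around beta rings, which hold the cutting sites, and the 19S regulatory particle that caps the barrel recognises, unfolds and feeds in the substrate. In cells exposed to interferon gamma, and in immune cells, the catalytic beta subunits can be replaced by inducible forms that make up the immunoproteasome. Heart muscle depends on this system to renew its contractile proteins.

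The libraries held 46151722 and 44707283 expected counts (reads assigned to genes, with reads that match several genes shared out). Levels are in TPM, which divides the count by the effective length of the gene and scales to a fixed total, so that genes of different length can be compared. The heart identity was checked first. All 6 heart muscle markers were detected, with Actc1, the cardiac actin, the highest at 16412 and 13902 TPM. Of 8 genes listed as lymphocyte markers none reached 1 TPM in both hearts. The highest was Ptprc, which is not limited to lymphocytes, at 0.940 and 1.29 TPM, followed by Cd79a at 0.250 and 0.530 TPM. Endothelial markers summed to 161 and 148 TPM (highest Pecam1, 48.1 and 45.0 TPM) and fibroblast markers to 587 and 637 TPM (highest Col1a1, 254 and 261 TPM). Macrophage markers summed to 76.8 and 86.1 TPM, with Lyz2 the highest at 43.3 and 48.5 TPM. The libraries stood apart in red blood cell markers, which summed to 6036 and 3916 TPM (highest Hbb-bs, 3480 and 2278 TPM), and in lung epithelium markers, of which Scgb3a2 measured 2.96 and 563 TPM and Sftpc 25.5 and 0.340 TPM. Because the tissue was measured in bulk, fewer cells of a type and less RNA per cell cannot be told apart.

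Proteasome genes were expressed far above the typical gene of the heart. The 50 genes together took 7070 TPM in replicate 1 and 7063 TPM in replicate 2, or 0.707% and 0.706% of all TPM. At 1 TPM or more in both hearts, 49 of 50 genes (98.0%) were detected, against 54.5% of 21474 protein-coding genes. The median proteasome gene stood at 126 TPM, against 12.0 TPM for the median of 11699 detected protein-coding genes. At 100 TPM or more in both hearts stood 31 of the 49 detected genes (63.3%), against 9.27% of detected protein-coding genes. The exception among the 50 was Psmb11, the catalytic subunit known from cortical thymic epithelium, which had 1 and 2 counts, under the floor of 3 counts. Of the other thymic epithelium markers Foxn1 had 1 and 0 counts, and Ccl25 was the highest at 2.70 and 3.55 TPM.

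**Figure D1:**
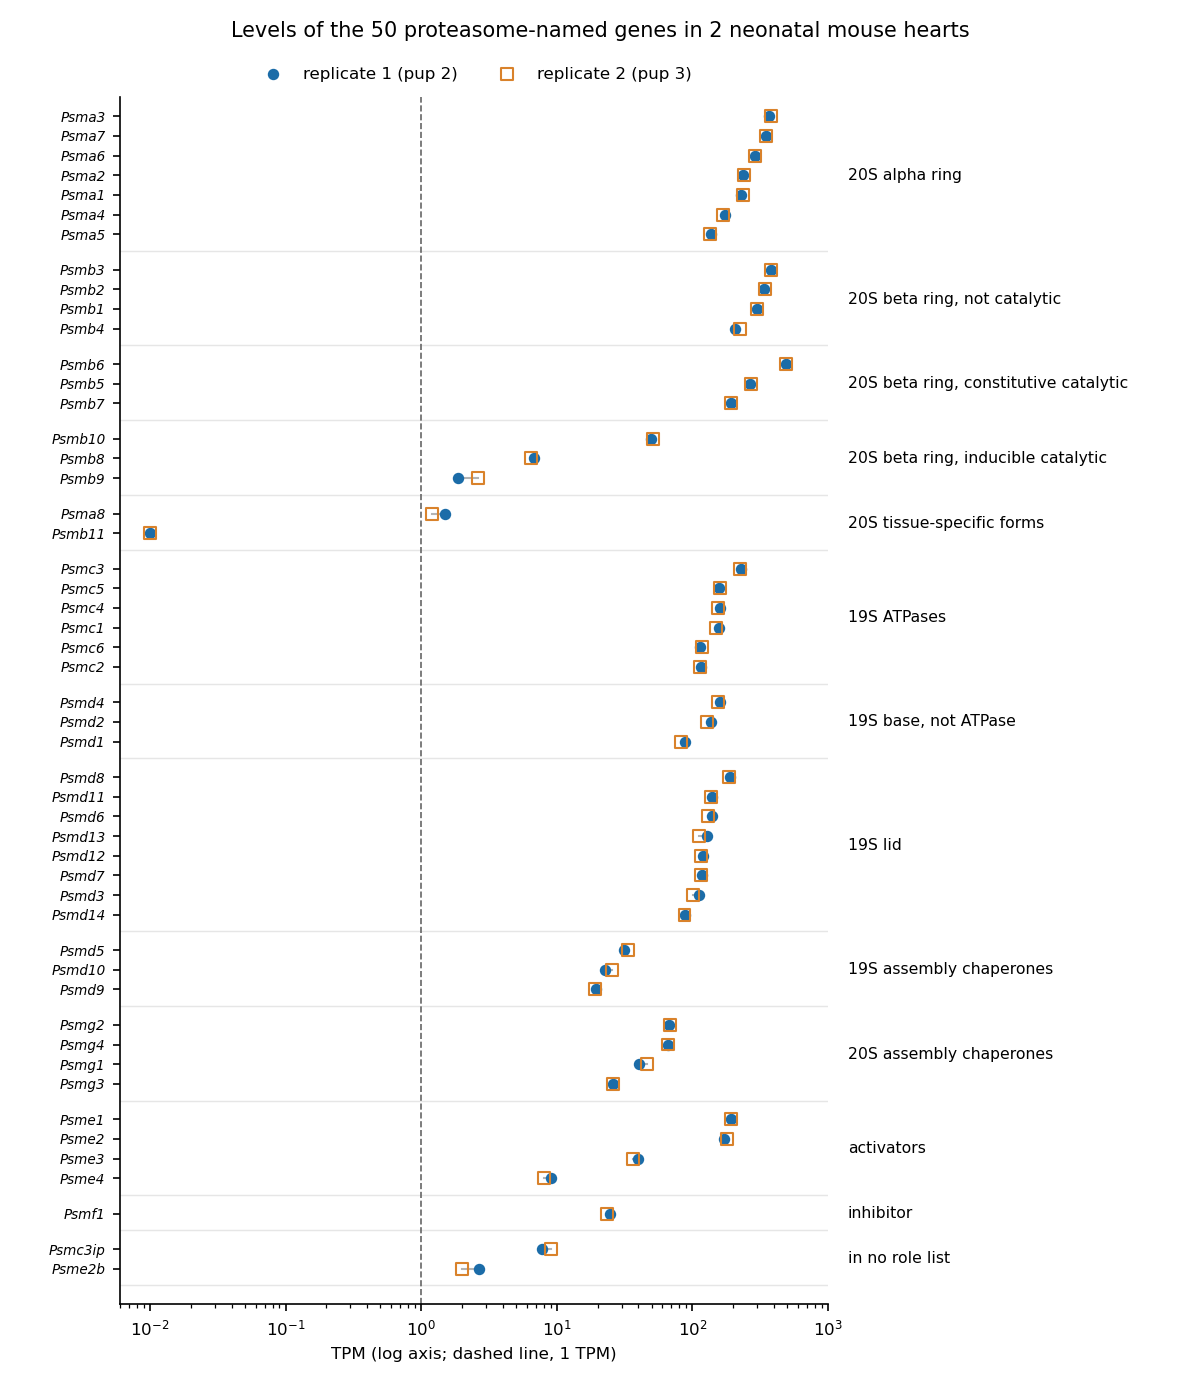
TPM of the 50 proteasome-named genes (log axis) in replicate 1 (filled circles) and replicate 2 (open squares), grouped by role, with 1 TPM as the dashed line. Subunits of the standard 20S core and the 19S particle lie between 82.9 and 487 TPM, and the inducible and tissue-specific subunits lie below them, down to Psmb11 at 0.0100 TPM.

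The particle's structural subunits occupied the top of the order. All 31 standard subunits of the 20S core and the 19S particle lay among the 33 most abundant proteasome genes, together with the activators Psme1 and Psme2. The 14 core genes summed to 3969 ± 35.8 TPM (SD, n = 2) and the 17 regulatory particle genes to 2309 ± 55.7 TPM. The median core gene, at 279 TPM, was 2.11 times the median regulatory gene, at 132 TPM, with ratios of 2.04 and 2.18 in the hearts taken one by one. By mean TPM every core gene was above the median of the regulatory particle, and 10 of 14 were above its most abundant gene, Psmc3. Of these, Psma1 was not above Psmc3 in both hearts taken one by one.

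The alpha ring summed to 1790 ± 11.9 TPM over its 7 genes. Psma3 was the highest at 367 and 381 TPM. Its transcripts were the most divided and it can share reads with a pseudogene copy, as described below. Psma7 followed at 349 and 348 TPM and Psma6 at 291 and 290 TPM. Psma2 (235 and 239 TPM) and Psma1 (229 and 238 TPM) formed the middle of the ring's range. Psma4 and Psma5 were the lowest, at 174 and 169 TPM and at 137 and 134 TPM. The highest gene of the ring was 2.76 times the lowest, although each protein enters the ring in the same number. Psma8, a form of Psma7 known from the testis, measured 1.50 and 1.21 TPM (91 and 73 counts), so Psma7 was 233 and 288 times higher. Among testis germ cell markers none was detected, and Sycp1 had 0 counts in both hearts.

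The beta subunits that carry no active site summed to 1233 ± 20.5 TPM. Psmb3 stood at 377 and 380 TPM, Psmb2 at 337 and 344 TPM, and Psmb1 at 298 and 300 TPM. Psmb4, the lowest of them, measured 207 and 224 TPM, and the littermates did not overlap in its deposited interval of TPM. These intervals are the authors' credibility intervals from the quantification, with a width that is not stated in the files, and they cover counting and read assignment within a library, not the spread between animals.

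The constitutive catalytic subunits summed to 946 ± 3.40 TPM. Psmb6, which carries the caspase-like site, was the most abundant of all 50 genes at 487 TPM in each heart, from 12845 and 12754 counts. Psmb5, which carries the chymotrypsin-like site, measured 265 and 270 TPM. Psmb7, which carries the trypsin-like site, measured 192 and 191 TPM. The order Psmb6, Psmb5, Psmb7 was the same in both hearts, with Psmb6 1.84 and 1.81 times Psmb5, and Psmb5 1.38 and 1.42 times Psmb7. The deposited intervals of the catalytic genes did not overlap in either heart: 471 to 488 and 472 to 489 TPM for Psmb6, 255 to 267 and 260 to 272 TPM for Psmb5, and 183 to 195 and 183 to 194 TPM for Psmb7.

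The inducible catalytic subunits were lower than their constitutive counterparts in each of the 3 pairs, but by very different amounts. Psmb10, which replaces Psmb7, measured 49.8 and 51.2 TPM (2223 and 2264 counts). Psmb8, which replaces Psmb5, measured 6.80 and 6.45 TPM (267 and 245 counts). Psmb9, which replaces Psmb6, measured 1.88 and 2.63 TPM (73 and 107 counts). Psmb10 therefore carried most of the inducible sum of 59.4 ± 1.32 TPM, at 7.32 and 7.94 times Psmb8, which in turn was 3.62 and 2.45 times Psmb9.

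Taken as pairs, on the scale of TPM + 1, the log2 ratio of Psmb10 to Psmb7 was -1.93 and -1.88 (mean -1.90, SD 0.04). Without the added 1, the constitutive gene was 3.86 and 3.72 times higher, and the inducible gene made up 20.6% and 21.2% of the pair. For Psmb8 against Psmb5 the log2 ratio was -5.09 and -5.19 (mean -5.14, SD 0.07), with the constitutive gene 38.9 and 41.9 times higher and an inducible share of 2.50% and 2.33%. For Psmb9 against Psmb6 it was -7.40 and -7.07 (mean -7.24, SD 0.23), with the constitutive gene 259 and 185 times higher and an inducible share of 0.385% and 0.537%. Each pair differed in the same direction in both hearts by more than the littermates differed from each other, and the deposited intervals of its genes did not overlap. Summed over the sites, the constitutive genes were 16.1 and 15.7 times the inducible ones (log2 ratio -3.99 and -3.95), and the inducible share was 5.83% and 5.98%. The shares of the 3 sites thus ranged from under 1 to above 20 percent. Psmb10 makes up most of the inducible sum, and Psmb6 and Psmb5 make up most of the constitutive sum.

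**Figure D2:**
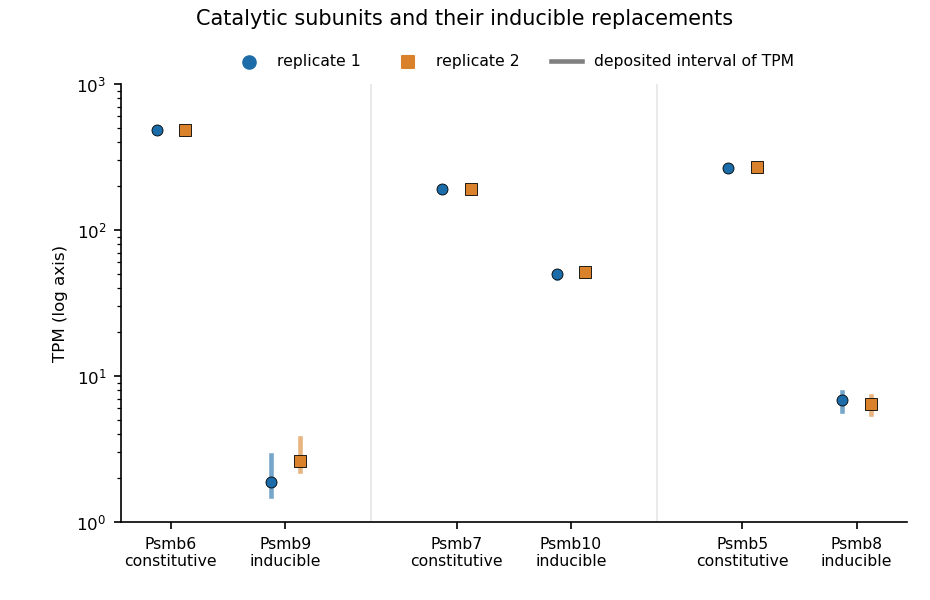
TPM (log axis) of the constitutive catalytic subunits and of the inducible subunits that replace them, in replicate 1 (circles) and replicate 2 (squares), with vertical bars for the deposited intervals of TPM. Psmb10 lies 3.79 times below Psmb7, Psmb8 lies 40.4 times below Psmb5 and Psmb9 lies 216 times below Psmb6 by mean TPM, and the bars of a pair do not meet.

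The inducible genes differ from one another in genome position as well as in level. On the mouse build GRCm38 (mm10), Psmb8 (chromosome 17, 34197721 to 34201454, plus strand) and Psmb9 (chromosome 17, 34181987 to 34187764, minus strand) lie 9956 bases apart in the major histocompatibility region. Between them lies Tap1, a subunit of the peptide transporter of antigen presentation. Psmb9 and Tap1 are read from opposite strands and their annotated spans share 212 bases. Psmb10 lies elsewhere (chromosome 8, 105935735 to 105938444, minus strand). The constitutive genes are scattered too: Psmb5 on chromosome 14 (54614119 to 54618022), Psmb6 on chromosome 11 (70525367 to 70527858) and Psmb7 on chromosome 2 (38588036 to 38644087).

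Upstream sequence is shown for the catalytic genes because the pair comparison turns on them and because the known transcriptional inputs of the groups differ: Nfe2l1 and Nfe2l2 act on standard subunits through antioxidant response elements, and interferon signalling acts on inducible subunits through interferon regulatory factor and STAT sites. The bases are RefSeq's (GRCm38.p6), 5′ to 3′ on the gene's strand, restricted to a stretch before the RefSeq start that no annotated exon covers. Capitals mark the letters TGACNNNGC on either strand, a core of the antioxidant response element.
Psmb5 (chr14:54618023-54618172, minus strand): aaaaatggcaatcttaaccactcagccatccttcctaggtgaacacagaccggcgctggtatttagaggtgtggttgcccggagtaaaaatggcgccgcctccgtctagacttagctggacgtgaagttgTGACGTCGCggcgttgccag
Psmb6 (chr11:70525207-70525356, plus strand): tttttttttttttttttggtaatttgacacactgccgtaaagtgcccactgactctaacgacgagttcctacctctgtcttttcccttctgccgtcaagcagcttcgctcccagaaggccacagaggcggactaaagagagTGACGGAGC
Psmb10 (chr8:105938445-105938594, minus strand): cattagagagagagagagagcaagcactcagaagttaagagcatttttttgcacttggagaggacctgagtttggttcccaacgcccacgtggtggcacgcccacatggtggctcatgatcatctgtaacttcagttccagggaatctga

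The match lies at -47 to -39 from the RefSeq start in Psmb5 and at -9 to -1 in Psmb6, counting the start base as 0. The same letters occur in the windows (250 bases before to 50 after the start) of Psmc6, Psmd12, Psmd9 and Psme4, which makes 6 of the 42 proteasome genes with a RefSeq window (14.3%), against 14.0% of 27025 genes. The core of the interferon regulatory factor element (GAAA, any 2 bases, GAAA) occurs in 5 of 42 (11.9%, against 3.99% of genes): Psmb3, Psmd4, Psmd9, Psme1 and Psmg4. TTCNNNGAA, a core of STAT sites, occurs in 3 of 42 (7.14%, against 9.55%): Psmb8, Psmd2 and Psmg1. CCGGAAG, a core bound by ETS factors, occurs in 15 of 42 (35.7%, against 9.93%), among them Psma6, Psmc1, Psmc2, Psmd11 and Psme3. All were searched on both strands, and no match in a proteasome gene overlaps a match of another of the 4 motifs. Psmb10 and Psmb9 held none of the 4 motifs in their windows. A match describes letters only, and the lack of one says only that the letters are not in that window. The RefSeq starts of Psmb8 and Psmb9 lie 474 and 434 bases inside the gene models of the GENCODE annotation, and that of Psme1 371 bases inside, so their windows do not lie before the starts of those models. Psmb1, Psmb2, Psmb7, Psmc3, Psmd3, Psmd7, Psmg2 and Psma8 had no entry.

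Within the 19S regulatory particle the highest gene was 2.65 times the lowest, against 3.60 times within the core. Its ATPases, the ring that unfolds the substrate, summed to 924 ± 7.88 TPM. Psmc3 was the highest at 229 and 225 TPM. Psmc5 (158 and 159 TPM), Psmc4 (159 and 155 TPM) and Psmc1 (156 and 149 TPM) had overlapping deposited intervals in replicate 1. In replicate 2 the interval of Psmc5, 153 to 160 TPM, was above that of Psmc1, 143 to 150 TPM. Psmc6 (113 and 118 TPM) and Psmc2 (116 and 114 TPM) were the lowest and exchanged places between the hearts.

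The other subunits of the base summed to 375 ± 12.3 TPM. Psmd4, a ubiquitin receptor, measured 159 and 155 TPM. The large scaffold subunits Psmd2 and Psmd1 measured 136 and 128 TPM and 88.4 and 82.9 TPM. The lid, which removes ubiquitin from the substrate, summed to 1010 ± 35.5 TPM. Psmd8 was its highest gene at 190 and 185 TPM, followed by Psmd11 (140 and 137 TPM) and Psmd6 (140 and 131 TPM). Psmd13 (129 and 112 TPM), Psmd12 (120 and 115 TPM), Psmd7 (117 and 115 TPM) and Psmd3 (112 and 101 TPM) lay close together. Psmd14, the deubiquitinating enzyme of the lid, was its least abundant gene at 88.3 and 87.4 TPM. Psmc3, the highest gene of the whole particle, was 2.59 and 2.57 times Psmd14.

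The assembly chaperones, which guide the subunits together and leave the finished particle, were below every standard subunit by the TPM of the whole gene. Psmg2 and Psmg4, chaperones of the alpha ring, measured 67.5 and 68.5 TPM and 65.7 and 66.4 TPM. Psmg1, the partner of Psmg2, measured 40.7 and 46.4 TPM, and Psmg3, the partner of Psmg4, 25.9 and 26.1 TPM. Partners of a chaperone pair therefore differed in level, in the same direction in both hearts. The chaperones of the 19S base measured 31.1 and 33.4 TPM for Psmd5, 22.5 and 25.4 TPM for Psmd10, and 19.3 and 19.1 TPM for Psmd9. All were below Psmg1, Psmg2 and Psmg4 in both hearts, and Psmd5 was above Psmg3.

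Among the activators, which bind the core in place of the 19S particle, the members spanned a wide range. Psme1 and Psme2, the paired subunits of an activator that interferon gamma induces, measured 191 and 192 TPM and 171 and 181 TPM. They were thus at the level of standard subunits. The inducible catalytic subunits, which interferon gamma also induces, were lower in the same hearts, Psmb10 at 49.8 and 51.2 TPM and Psmb8 and Psmb9 at 1.88 to 6.80 TPM. Psme3, the nuclear activator, measured 39.5 and 36.5 TPM, 4.33 and 4.96 times below Psme2 by the TPM of the whole gene. Psme4, the largest activator, measured 9.13 and 8.06 TPM. Psmf1, an inhibitor of the core, measured 24.5 and 23.5 TPM. Of the genes in no role, Psmc3ip measured 7.79 and 9.03 TPM and Psme2b 2.66 and 1.99 TPM.

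The order of levels was only partly resolved. Of 49 neighbouring pairs in the order by mean TPM, 35 had the same order in both hearts, in 29 the values of the littermates did not overlap, and in 15 the deposited intervals were apart in both. Psmb6 above Psmb3 was such a resolved step, whereas Psmb3 and Psma3, Psmc5 and Psmd4, and Psmd14 and Psmd1 exchanged places between the hearts.

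The littermates differed little in proteasome genes. Replicate 2 was set against replicate 1 as a log2 ratio of counts, scaled by TMM and with 2 added as prior count. Genes were kept at a mean count of at least 50, which left 13465, of which 49 were proteasome genes. None of the 49 passed a 2-fold ratio, against a background of 0.498% of all genes. Past 1.2-fold were 3 (6.12%), against 15.2% of all genes. The SD of the ratio was 0.128 over the proteasome genes and 0.311 over all genes, and the median absolute ratio 0.044 and 0.104. The proteasome genes are mostly abundant, and ratios of abundant genes carry less counting error. The deposited intervals of TPM were apart between the littermates for 9 of 49 genes (18.4%), near the 17.6% of all genes. These were Psma1, Psmb4, Psmd10 and Psmg1, higher in replicate 2, and Psmc1, Psmd1, Psmd2, Psmd3 and Psmd6, higher in replicate 1.

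The genes past 1.2-fold were all of low abundance. Psmb9 was higher in replicate 2 (73 and 107 counts, log2 ratio 0.57), with 1 gene of 49 past the fold in this direction against 7.89% of all genes. Psma8 (91 and 73 counts, -0.28) and Psme2b (75 and 56 counts, -0.38) were lower, 2 genes against 7.34%. The exact Poisson 95% intervals of the counts of Psmb9, 57.2 to 91.8 and 87.7 to 129, overlapped, as did its deposited intervals of TPM, 1.51 to 2.87 and 2.22 to 3.77. Overlap of separate intervals does not show that counting error covers the ratio, which was not tested. On the scale of TPM + 1 the log2 ratio of Psmb9 was 0.33. Psmb8 and Psmb10, the other inducible subunits, had ratios of -0.09 and 0.06.

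Other immune-linked genes are given beside Psmb9. The macrophage markers were higher in replicate 2 in 7 of 7 genes, against 49.4% of all genes. Past 1.2-fold higher were 3 of 7, against 7.89% of all genes. These were Cd163 (42 and 72 counts), Cd68 (195 and 274 counts) and Mrc1 (347 and 424 counts). Tap1, which overlaps Psmb9, was lower in replicate 2 (284 and 206 counts, -0.43). Among 13 interferon response genes at a mean count of at least 50, 10 were past 1.2-fold lower, against 7.34% of all genes. None was past 1.2-fold higher, and the median of the 13 was -0.40. The part of macrophages, of interferon response or of reads from Tap1 in the ratio of Psmb9 was not tested. The sources used here do not state whether the counting used strand, so reads of Psmb9 and Tap1 in the shared bases cannot be told apart.

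The core and the regulatory particle differed slightly in their ratio between the littermates. Of the 14 standard core genes 12 had a ratio above 0, with a median of 0.02 and a range from -0.02 to 0.08. Of the 17 regulatory particle genes 3 had a ratio above 0, with a median of -0.02 and a range from -0.12 to 0.08. Among all 13465 genes 49.4% were above 0, and among the 49 proteasome genes 26. The counts depended on the scaling: with total counts they were 13 of 14 and 6 of 17, with DESeq2 size factors 11 and 3, and with TPM ratios 9 and 2. The difference between the medians was 0.05, 0.05 and 0.04 under those settings, and 0.05 in the main one.

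Gene length moved with this difference. Core genes had a median effective length of 873 bases and regulatory particle genes of 1405 bases. Over the 31 standard subunits the ratio had a Pearson correlation of -0.67 and a Spearman correlation of -0.64 with log2 effective length, and over all 13465 genes of -0.13 and -0.23. These correlations are across genes of the same library pair, which are not independent replicates, and are given as a description. Within the core the Pearson and Spearman values were -0.18 and -0.34 over 14 genes, and within the regulatory particle -0.45 and -0.27 over 17. Over 1827 protein-coding genes at 50 to 500 TPM they were -0.16 and -0.38. The median ratio of all genes was 0.06 below 1000 bases, 0.03 from 1000 to 1500, 0.00 from 1500 to 3000 and -0.05 above 3000. Among the proteasome genes the medians in these classes were 0.03 (18 genes), -0.01 (19), -0.06 (11) and, for Psme4 alone, -0.11. The part of length in the difference between core and regulatory particle was not tested.

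**Figure D3:**
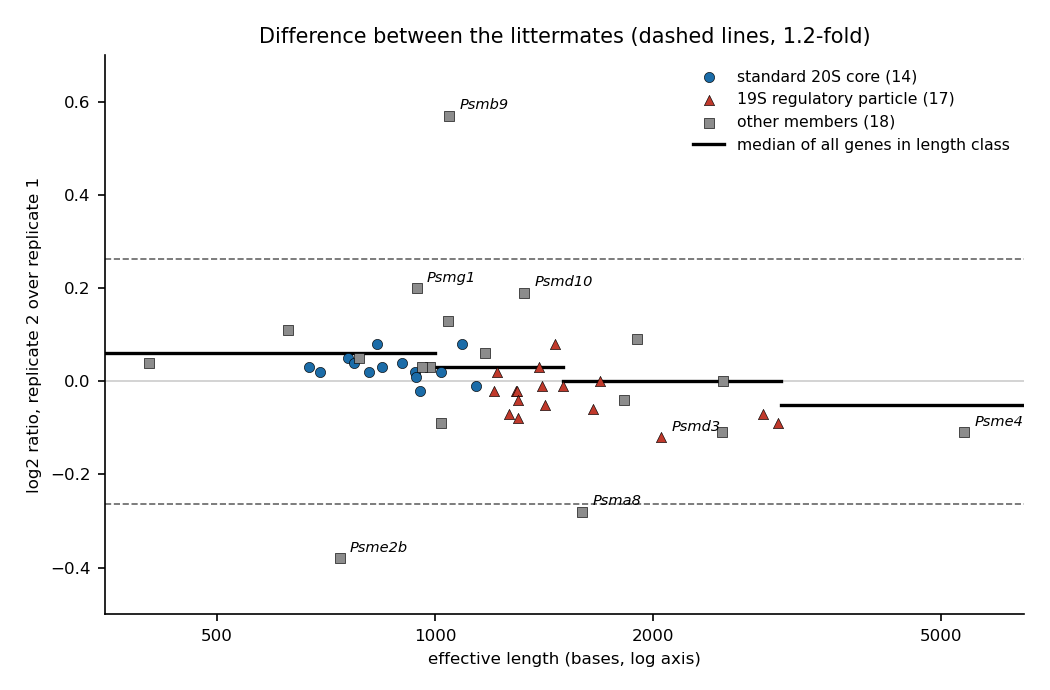
Log2 ratio of replicate 2 to replicate 1 (TMM-scaled counts) against effective length in bases (log axis) for 49 proteasome genes, by class, with the medians of all genes in 4 length classes as black lines and 1.2-fold as dashed lines. Psmb9 lies above the upper line at 0.57, Psma8 and Psme2b lie below the lower one, and the core and regulatory particle genes lie between -0.12 and 0.08.

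For most proteasome genes a single transcript carried the output. Of 38 genes with several transcripts and 5 TPM or more, 35 had the same main transcript in both hearts by the deposited percent of the gene's TPM, and in 22 the main transcript took at least 90% in both. Among the catalytic subunits, Psmb5 and Psmb10 have 1 transcript in the tables. Psmb6-201 took 92.8% and 94.3% and Psmb7-201 91.3% and 92.8% of their genes. Psmb8 was divided between coding transcripts, Psmb8-203 at 61.5% and 64.3% and Psmb8-201 at 38.5% and 35.7%. By counts, which are not divided by length, the longer Psmb8-201 led, with 153 and 133 against 114 and 112. Psmb9-204 took 63.5% and 72.3%.

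In 6 genes the main transcript took under 60% in a heart. Psma3 was the most divided, with a retained-intron transcript, Psma3-203, at 31.9% and 32.0%, and the coding Psma3-204 at 30.7% and 33.2%. By counts Psma3-203 led in both hearts, with 32.6% and 33.3% against 25.7% and 28.3%. Psmb4 was divided between the coding Psmb4-201 (54.0% and 50.8%) and the retained-intron Psmb4-202 (45.7% and 45.0%), of which the second held 30.6% and 31.3% of the gene's counts. Psmd13-201 took 46.7% and 50.6% of its gene, and a transcript annotated as a target of nonsense-mediated decay, Psmd13-211, 27.3% and 29.9%. By counts Psmd13-201 held 70.6% and 70.7% and Psmd13-211 21.7% and 22.1%. In Psmd4 the coding transcripts Psmd4-201 (51.3% and 46.2%) and Psmd4-202 (45.9% and 50.5%) exchanged the lead. In Psme2 the coding transcripts Psme2-201 (39.3% and 39.9%) and Psme2-208 (35.7% and 37.3%) were close. The retained-intron Psme2-203, of 185 bases, took 19.9% in each heart but 2.75% and 2.71% of the gene's counts. By counts the longer Psme2-208 led, with 49.4% and 51.0% against 44.0% in each heart. In Psmc3ip the coding Psmc3ip-201 led in replicate 1, and in replicate 2, at 38.8%, it was behind the retained-intron Psmc3ip-202 at 51.4%. The gene had 320 and 343 counts.

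**Figure D4:**
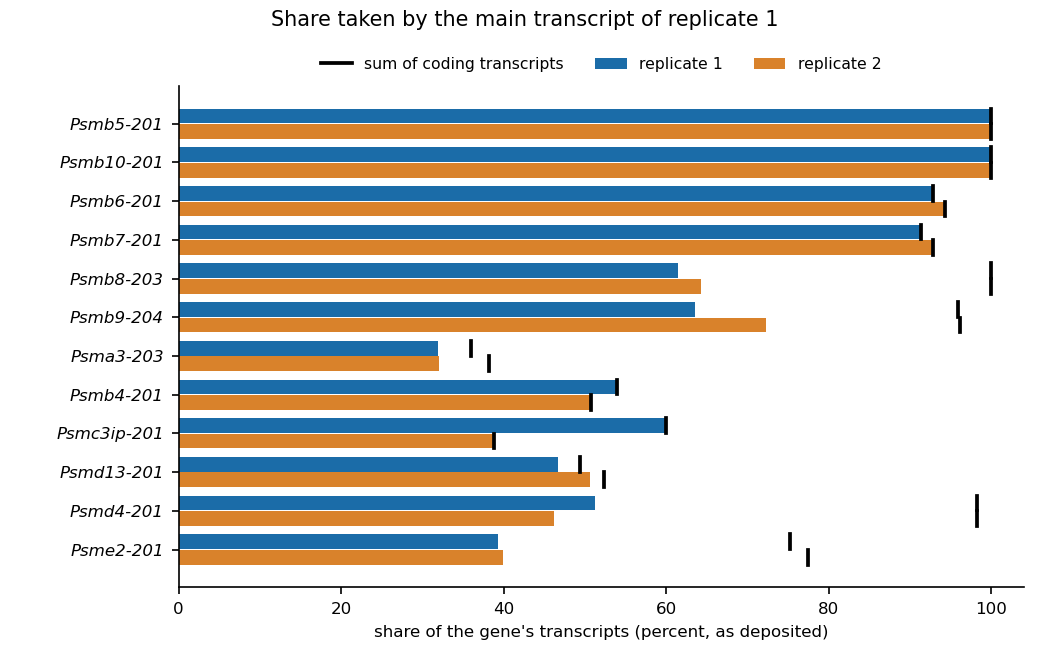
Share of each gene's TPM (percent, as deposited, from 0) taken by the transcript that led in replicate 1, in both replicates, with black ticks for the summed share of coding transcripts. Psmb5, Psmb10, Psmb6 and Psmb7 are carried by a leading transcript above 90%, and Psma3, Psmb4 and Psmd13 reach only 36.0% to 54.0% in transcripts annotated as coding. Psmd13 transcripts with no type in the annotation used are not counted as coding.

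Transcripts annotated as coding made up at least 90% of the gene in both hearts for 43 of 50 genes. With coding transcripts alone, a setting chosen after the data were seen, Psma3 measured 132 and 145 TPM and moved from rank 3 to rank 19, Psmb4 measured 112 and 114 TPM and moved from rank 12 to rank 29, and Psmd13 measured 63.8 and 58.6 TPM. Psmb4 was then below the median regulatory gene, at 130 TPM. Psmd13, at a mean of 61.2 TPM, was the lowest standard subunit and below the chaperones Psmg2 and Psmg4 by this measure. Its transcripts of 361 and 123 bases have no type in the annotation used and were counted as not coding. They held 14.1% and 12.8%, and 4.99% and 0%, of its TPM. Whether they are coding was not tested, so this place of Psmd13 is uncertain. The median core gene was then 1.86 and 2.02 times the median regulatory gene, and 9 of 14 core genes were above Psmc3. The high rank of Psma3 thus rests on transcripts that are not annotated as coding. In the same setting Psme2 measured 129 and 140 TPM, Psme1 176 TPM in each heart, and Psme3 38.5 and 35.3 TPM.

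Processed copies of proteasome genes lie elsewhere in the genome and can share reads with them. Among annotated pseudogenes, 16 shared at least 10% of their 31-base words with a proteasome gene, and together they held 2297 and 2156 counts, 0.767% and 0.735% of the 299316 and 293202 counts of the proteasome genes. Most of these counts were in Gm13835, a copy of Psma3 that shares 100% of its words and held 1950 and 1820 counts (87.2 and 82.2 TPM). The division of reads between Psma3 and Gm13835 is therefore uncertain. As a share of the posterior mean, the posterior SD of the count was at most 1.19% for Psma3 and 7.85% for Gm13835. For no proteasome gene did the posterior SD of the count exceed 10% of its posterior mean, and the highest was Psme2b at 7.56%. Some proteasome genes overlap an expressed gene on the other strand. Among them, Psmb7 overlaps Nek6 (1405 and 1411 counts) and Psmc3 overlaps Slc39a13 (2063 and 2058 counts). Psmd13 overlaps Sirt3 (2336 and 2338 counts), and Psmc3ip, itself at 320 and 343 counts, overlaps Mlx (1052 and 1022 counts). On the same strand, the annotated span of Psma2 shares 8943 bases with AW209491 (957 and 809 counts). The part of these genes in the values was not tested.

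Genes that work with the proteasome but are named otherwise were expressed beside it. All 10 partners examined were detected, and none passed 1.2-fold between the littermates. Sem1, a small lid subunit, measured 205 and 209 TPM, and Pomp, the maturation factor of the core, 191 and 202 TPM. Adrm1, a ubiquitin receptor, measured 119 and 98.6 TPM, and Zfand5, which binds and stimulates the particle, 70.3 and 70.7 TPM. Pomp was thus more abundant than any of the Psmg chaperones, and Sem1 was above every named lid gene.

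The 2 genes of ubiquitin supply reported here were at the level of the most abundant proteasome genes or above. Ubb, which codes for a chain of ubiquitin units, measured 1421 and 1547 TPM, above Psmb6. Rps27a, which codes for ubiquitin fused to a ribosomal protein, measured 416 and 430 TPM, below Psmb6 and above Psmb3. Neither passed 1.2-fold between the littermates, with log2 ratios of 0.14 and 0.07.

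Of the genes that control proteasome transcription, 7 of 8 were detected and none passed 1.2-fold. Nfe2l1, the factor that raises proteasome gene expression when activity is short, measured 62.7 and 60.6 TPM. Nfe2l2, the antioxidant response factor, measured 38.1 TPM in each heart, and its inhibitor Keap1 34.7 and 32.2 TPM. Ngly1, the glycanase that processes Nfe2l1, measured 18.8 and 20.0 TPM. Nfe2l3 was below the detection level at 0.880 and 0.980 TPM.

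The class I antigen presentation genes, which use peptides that proteasomes make, were uneven. Of 11 genes 10 were detected. B2m measured 214 and 206 TPM, Calr 153 and 200 TPM, Pdia3 159 and 177 TPM, and H2-D1 86.4 and 79.7 TPM. The chaperones Calr and Pdia3 serve other proteins as well. The peptide transporter was low, with Tap1 at 2.82 and 2.08 TPM, in the range of its neighbours Psmb8 and Psmb9, and Nlrc5, the activator of this gene group, measured 0.0900 ± 0.0141 TPM (SD, n = 2). Past 1.2-fold were Calr, higher in replicate 2 at 0.36, and Tap1, lower at -0.43.

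Of 15 interferon response genes 12 were detected, with Bst2 the highest at 33.9 and 33.2 TPM. Xaf1 (14.5 and 9.55 TPM, -0.35), Irf9 (10.8 and 8.77 TPM, -0.26), Rtp4 (9.35 and 6.83 TPM, -0.44) and Oasl2 (6.87 and 4.51 TPM, -0.49) were lower in replicate 2. For the interferon-inducible proteasome genes of the same hearts the ratios were 0.03 for Psme1, 0.11 for Psme2, -0.09 for Psmb8, 0.57 for Psmb9 and 0.06 for Psmb10, so that only Psmb8 of these 5 was below 0 and only Psmb9 was past 1.2-fold.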

How the data were processed

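Each library came with values per gene and per transcript, which the authors quantified on mm10 with GENCODE M4, per the deposited read-me, without pooling. For the aligner and the quantification tool, names and versions were not given in the sources used here. The deposited expected counts estimate the reads of a gene or transcript. The authors scaled TPM and FPKM by effective length. The deposited percent divides a gene's TPM among its transcripts. The deposited bounds of the TPM interval are a signal in TPM units. Effective length is deposited in bases. Rows that name no gene held 0.000646% and 0.000637% of counts and were left out of the littermate ratios.

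Symbols, biotypes and coordinates came from GENCODE M21 (the same build, GRCm38) for 42462 of 43346 Ensembl identifiers, matched without version. The 4 named pseudogenes were left out. Members and gene lists were chosen with earlier results of these data known. Every proteasome gene is named. Of partner, ubiquitin, control, antigen presentation and interferon lists, the 4 with the highest mean TPM and those past 1.2-fold were named, at most 6. The results of some genes of these lists are not reported here. Nlrc5, Nfe2l3 and genes that overlap or copy a proteasome gene were named after their values were seen.

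Pairs were compared as log2(TPM + 1). Littermate ratios used expected counts rounded to whole numbers, TMM scaling (edgeR 4.0.16, R 4.3.3) and a prior count of 2, and DESeq2 1.42.0 size factors as an alternative. The ratio was tested on simulated data. The SD over 2 hearts measures only the spread between these samples. Other steps used Python 3.11.15 with numpy 2.4.6, pandas 2.3.3, scipy 1.17.1 and matplotlib 3.10.9. The Poisson intervals and the floors cover counting error only.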

Additional observations from a re-analysis of the deposited data

How the results depend on the processing

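The ratio of each inducible gene to its constitutive counterpart kept its direction under other pseudocounts, FPKM, posterior mean TPM and counts not divided by length. With each heart alone it ran from -5.19 to -5.09 for Psmb8 over Psmb5, from -7.40 to -7.07 for Psmb9 over Psmb6, from -1.93 to -1.88 for Psmb10 over Psmb7, and from -3.99 to -3.95 for the sums. With each heart alone 49 genes were detected, and the median level ran from 123 to 133 TPM. With coding transcripts alone, chosen after the data were seen, the median was 117 TPM. The median ratio between the littermates, 0.02, was 0.00 with DESeq2 size factors, 0.03 with total counts and -0.01 with TPM ratios, where the direction turned. All of these lie near 0, and the cause was not tested. The genes past 1.2-fold were 3 in the main setting, 2 with TPM ratios (without Psma8) and 4 with no filter on low counts, which added Psmb11 at 1 and 2 counts. No paired comparison of groups was possible because there was 1 group. Depth limits Psma8, Psmb9, Psmb11 and Psme2b, each at 107 counts or fewer.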
